A study of Mus musculus with 4 samples.

Results

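The mitochondrial ribosomal proteins were followed in CGR8, an established mouse embryonic stem (ES) cell line, cultured with or without leukemia inhibitory factor (LIF). The genes were taken by symbol: every gene whose symbol starts with Mrpl or Mrps followed by a digit, and whose probe set in the platform annotation carries that symbol alone. This gave 76 of the 18193 genes on the arrays, 47 with an Mrpl and 29 with an Mrps symbol, and each was represented by its brightest probe set. All 76 passed the filter on low signals, as did 14445 genes in all. The rule used names only, and no measured difference between the groups entered it.

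Total RNA was measured on 4 Affymetrix whole-genome mouse arrays. Both groups were CGR8 cells kept on gelatin in medium with knock-out serum replacement. The 2 arrays with LIF held cells in medium with LIF at 1000 U/ml, and the 2 arrays without LIF held cells whose medium was changed to one without LIF, both for 2 days. The medium was changed 1 day after passage. CGR8 is a single line. In each group the labels number the arrays 1 and 2, without saying whether the RNA of the 2 arrays came from different cultures. The p-values therefore describe no more than the spread among these 4 arrays, and that spread may be technical.

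The mitochondrial ribosome, or mitoribosome, translates the few messenger RNAs of the mitochondrial genome into core subunits of the respiratory chain and ATP synthase. Its proteins are encoded in the nucleus, made in the cytosol and imported, and assemble with ribosomal RNAs transcribed from mitochondrial DNA into a small subunit, which decodes the messenger, and a large subunit, which forms the peptide bond. Some of the proteins descend from those of the bacterial ribosome, and others were added in mitochondria. LIF acts through Stat3 and keeps mouse ES cells undifferentiated.

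Short motifs bound by known regulators were looked for in the promoters of these genes. Of the 76 genes, 67 matched a promoter window of RefSeq, build GRCm38.p6, which holds 250 bases before and 50 after the start of transcription. Both strands were searched for the letters CCGGAAG, bound by ETS factors such as Gabpa, a regulator of nuclear genes for mitochondria. The 150 bases just before the start are shown for 4 genes because these carry a regulator's letters and yet had changes on both sides of 0. They are written 5′ to 3′ on the strand of the gene, with the matched letters in capitals. Mrpl39 lies at chr16:84735245-84735394 on the minus strand and holds the palindromic letters bound by the factor NRF1, shown as 10 capitals. Mrpl52 lies at chr14:54426759-54426908, Mrps18a at chr17:46110854-46111003 and Mrpl27 at chr11:94653641-94653790, all on the plus strand, and hold the ETS letters, which Mrpl52 carries on the opposite strand as CTTCCGG.
Mrpl39: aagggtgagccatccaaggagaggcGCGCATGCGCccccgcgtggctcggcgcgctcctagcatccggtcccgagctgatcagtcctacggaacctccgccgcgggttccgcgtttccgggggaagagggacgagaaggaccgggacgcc
Mrpl52: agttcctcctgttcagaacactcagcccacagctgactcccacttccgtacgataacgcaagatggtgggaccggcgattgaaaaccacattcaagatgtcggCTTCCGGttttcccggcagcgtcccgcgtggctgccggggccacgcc
Mrps18a: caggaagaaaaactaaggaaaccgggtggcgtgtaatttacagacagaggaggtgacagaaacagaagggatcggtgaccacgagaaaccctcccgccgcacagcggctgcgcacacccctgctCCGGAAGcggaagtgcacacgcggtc
Mrpl27: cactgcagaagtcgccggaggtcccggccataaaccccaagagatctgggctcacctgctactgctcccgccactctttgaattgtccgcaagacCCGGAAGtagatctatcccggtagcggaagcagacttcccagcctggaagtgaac

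Most mitochondrial ribosomal protein transcripts read slightly lower without LIF, and none passed the test on its own. The median log2 change, without LIF minus with LIF, was -0.17 over the 76 genes, with a range of -0.64 to 0.34. It was 0.09 over all tested genes and -0.04 over the 4968 tested genes whose mean signal was at least that of the dimmest of the 76. A change below 0 was found for 60 of the 76 genes (78.9%), against 40.6% of all tested genes and 55.8% of those as bright. The changes were small: 52 of the 76 lay within 0.25 of 0, and the median standard error (SE) of a single gene was 0.19, larger than the median change. Setting each array to a common median moves every change alike, by -0.14 for a median of the tested genes and by -0.29 for one of all probe sets, so that 70 and 74 of the 76 were then below 0. Single genes that turn negative under such a scaling do so by this shared shift. In these bulk samples, fewer cells of a type and less RNA per cell cannot be told apart.

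By limma with Benjamini-Hochberg adjustment over all tested genes at 0.05, 0 of the 76 passed, where 0.145% of all tested genes did. At an unadjusted p of 0.05, 2 of the 76 were lower, Mrps12 and Mrpl40, and 0 were higher, against backgrounds of 3.73% and 7.16% of all tested genes. The smallest adjusted p among them was 0.22 (limma, Benjamini-Hochberg). Each alternative fit without the array number as a term also gave 0. A permutation test of 2 arrays against 2 cannot go below p = 0.333 (exact, two-sided). A change of at least 1.5-fold was found for 1 gene of the 76, Mrps12, where 25.8% of all tested genes differed by that much. A 2-fold change was found for 0, where 11.5% of all tested genes differed so. Among the 4968 tested genes as bright as the dimmest of the 76, 393 changed at least 1.5-fold and 143 at least 2-fold.

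**Figure D1:**
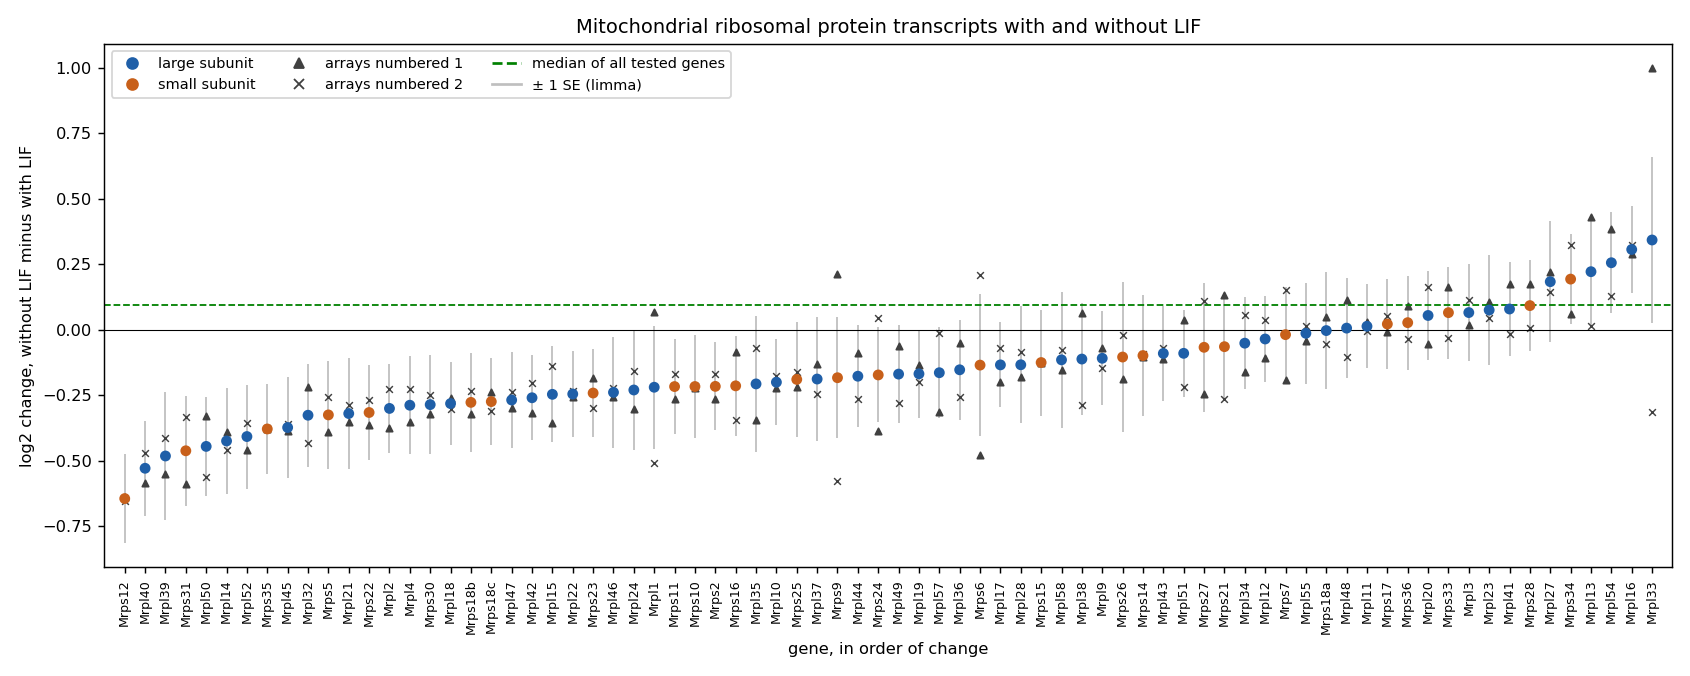
Log2 change of each of the 76 genes (without LIF minus with LIF, y axis), ordered by change, as filled points with 1 SE of limma; triangles and crosses give the change between arrays of number 1 and of number 2. The points run from -0.64 (Mrps12) to 0.34 (Mrpl33), and 60 of 76 lie below 0; the dashed line is the median of all tested genes, 0.09. With each array set to a common median of the tested genes every point moves by -0.14, and 70 of 76 are below 0.

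Both arrays without LIF lay below both arrays with LIF for 32 of the 76 genes, where 15.2% of all tested genes and 23.3% of those as bright did. Both lay above for 3 genes, where 27.3% and 17.1% did, and the groups overlapped for 41. Between the arrays of number 1 the median change of the 76 was -0.19 and between those of number 2 it was -0.17, beside 0.11 and 0.06 over all tested genes. The change was negative within both numbers for 47 of the 76 (61.8%), where 24.9% of all tested genes and 38.9% of those as bright were. It was positive within both for 8 genes, where 40.1% of all tested genes and 1414 of the 4968 as bright were. For 21 genes it was of mixed sign. The median rests in part on single arrays: it was -0.07 without array 2 with LIF, -0.10 without array 1 without LIF, and -0.26 without either of the other arrays.

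**Figure D2:**
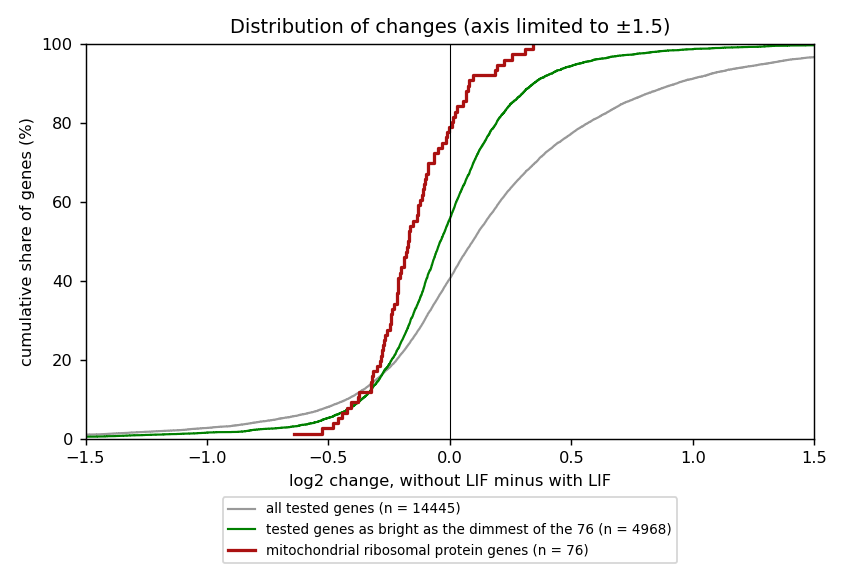
Cumulative share of genes (%) against the log2 change (without LIF minus with LIF) for the 76 mitochondrial ribosomal protein genes, the 4968 tested genes as bright and all 14445 tested genes. The curve of the 76 lies to the left around its median of -0.17 and is steeper, with no gene beyond -0.64 or 0.34, while the other curves have longer tails on both sides.

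**Figure D3:**
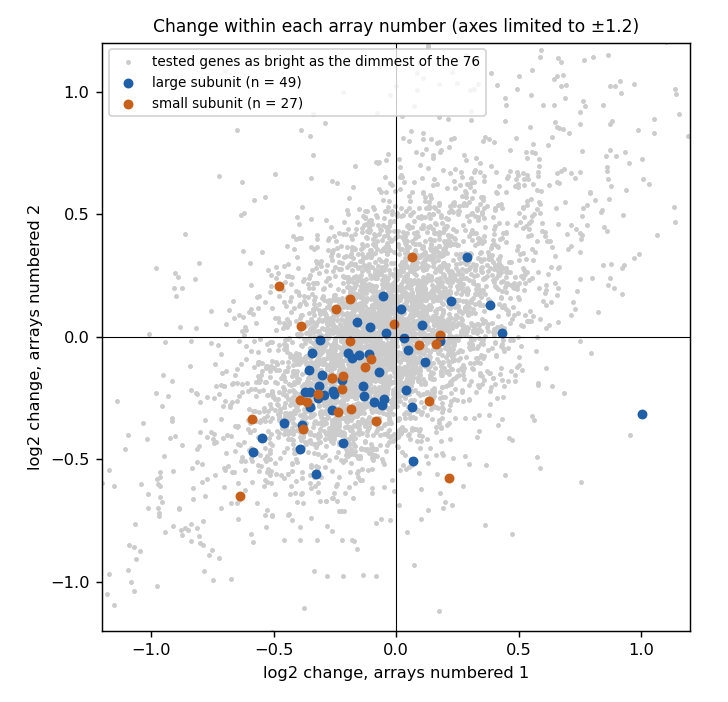
Log2 change between the arrays of number 1 (x axis) and between those of number 2 (y axis) for large-subunit genes (n = 49), small-subunit genes (n = 27) and, in grey, tested genes as bright. Of the 76 genes, 47 lie to the lower left and 8 to the upper right; the point far to the right is Mrpl33.

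Signals of these probe sets were bright, which does not rank transcripts by abundance, since probe sets differ in affinity. Geometric mean signals of the 76 genes ran from 793 to 8828 with a median of 2784, against a median of 359 over all tested genes. The median signal of the 76 was 2733 and 3111 on arrays 1 and 2 with LIF and 2525 and 2861 on arrays 1 and 2 without LIF. Within each group array 2 was the higher, and 50 of the 76 genes were higher on array 2 in both groups. Array 2 with LIF therefore lay highest and array 1 without LIF lowest, and the gap between the arrays of a group was wider than the gap between the groups within either number.

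Both subunits had medians close to that of the whole set. The large subunit, with 49 of the genes, had a median change of -0.17, and 38 of 49 were below 0. Its groups did not overlap for 21 genes that were lower and 2 that were higher. The small subunit, with 27 genes, had a median of -0.18, with 22 of 27 below 0, 11 lower without overlap and 1 higher. Over all tested genes 15.2% were lower and 27.3% higher without overlap. Mrps18a and Mrps30 were counted with the large subunit, where their proteins sit despite their symbols. The 46 genes with a bacterial homolog had a median of -0.17 (36 below 0) and the 30 without one also had -0.17 (24 below 0). Mrps36, whose product has since been assigned to the oxoglutarate dehydrogenase complex, was kept because the rule goes by symbol.

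A protein of the decoding centre had the most negative value. Mrps12, on chromosome 7, encodes the counterpart of bacterial S12, which lines the decoding site of the small subunit. Its signal was 2688 and 2817 on the arrays with LIF and 1730 and 1793 on those without LIF. The groups were well apart and the arrays of each group close together. The log2 change was -0.64 (SE 0.17), 1.56-fold lower, with an adjusted p of 0.22 (limma, Benjamini-Hochberg), and it was -0.64 between the arrays of number 1 and -0.65 between those of number 2. A single probe set measured this gene, and its _s suffix marks probes that can match several transcripts.

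Further small-subunit genes read lower. Mrps31, a mitochondria-specific protein, had signals of 5208 and 6050 with LIF and 3463 and 4800 without LIF, a log2 change of -0.46. Mrps35, another mitochondria-specific protein, had 2066 and 2014 with LIF and 1588 and 1551 without LIF, a change of -0.38. In both genes each array without LIF lay below each array with LIF, and the adjusted p was 0.49 for both (limma, Benjamini-Hochberg). Mrps22, also mitochondria specific, had 3129 and 3486 with LIF against 2433 and 2897 without, a change of -0.32 (SE 0.18). Its groups did not overlap either. Mrps16, a counterpart of bacterial S16, had 2725 and 2582 with LIF and 2571 and 2036 without, a change of -0.21, where the lower array with LIF and the higher array without LIF nearly met. Mrps27, a protein with pentatricopeptide repeats, had 919.5 and 1049.8 with LIF and 776 and 1134 without LIF, so that the group without LIF spanned the other. Its change of -0.07 became 0.21 without array 1 without LIF and 0.03 without array 2 with LIF.

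The mammalian genome holds 3 genes related to bacterial S18, and they differed in their values. Mrps18b had signals of 3353 and 3873 with LIF and 2684 and 3298 without LIF. Mrps18c had 3553 and 3881 with LIF and 3013 and 3133 without. Neither gene's groups overlapped, and the log2 changes were -0.28 (SE 0.19) and -0.27 (SE 0.17). Mrps18a, whose protein sits in the large subunit, had 1776 and 1431 with LIF and 1835.6 and 1379.9 without, a change of -0.002 (SE 0.22). Its value lay between positive and negative by setting: 0.01 with quantile normalization, 0.15 without array 1 with LIF and 0.20 without array 2 without LIF. The adjusted p was 0.65 for Mrps18b, 0.60 for Mrps18c and 0.998 for Mrps18a (limma, Benjamini-Hochberg). Differences between the 3 genes were not tested.

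In the large subunit the most negative values belonged to Mrpl40 and Mrpl39, both mitochondria specific. Mrpl40 had signals of 3452 and 3799 with LIF and 2301 and 2741 without LIF, with no overlap, a log2 change of -0.53 (SE 0.18) and an adjusted p of 0.35 (limma, Benjamini-Hochberg). Mrpl39, which resembles a threonyl-tRNA synthetase, had 8644 and 11589 with LIF and 5906 and 8705 without LIF. Its groups overlapped by a narrow margin, since array 2 without LIF was just above array 1 with LIF, although each number taken alone showed the lower value without LIF (-0.55 and -0.41). The change was -0.48 (SE 0.24) and the adjusted p 0.54 (limma, Benjamini-Hochberg), and its other probe set gave -0.37. It ranked 2 of 76 by signal.

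Mrpl50, Mrpl52 and Mrpl14 were the next most negative of the large subunit. Mrpl50, mitochondria specific, had signals of 2271 and 2189 with LIF and 1807 and 1486 without LIF, a log2 change of -0.44. Mrpl52, also mitochondria specific, had 3930.2 and 4666 with LIF and 2857 and 3651 without, a change of -0.41. Mrpl14, the counterpart of bacterial L14, was the dimmest of the 76, with 939 and 897 with LIF and 716 and 654 without, a change of -0.42. In all 3 genes the groups did not overlap. The adjusted p lay between 0.46 and 0.52 for these 3 genes (limma, Benjamini-Hochberg). The other probe set of Mrpl50 gave -0.26, and the 3 others of Mrpl52 were also below 0.

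Other large-subunit genes with known roles spread around these. Mrpl15, the counterpart of bacterial L15 and the brightest of the 76, had signals of 9219 and 10024 with LIF and 7210.5 and 9116 without LIF, a change of -0.25 (SE 0.18). Mrpl42, ranked 3 by signal, had 8118 and 8324 with LIF and 6519 and 7239.8 without, a change of -0.26 (SE 0.16). Neither overlapped. Mrps30 read 2264 and 2559 with LIF and 1813 and 2153 without, a change of -0.29 (SE 0.19), again without overlap. Mrpl44, a protein with a ribonuclease III fold, read 2157 and 2713 with LIF and 2028 and 2259 without, a change of -0.18 with overlap, and its 3 other probe sets were below 0 as well.

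Mrpl12, Mrpl51 and Mrpl3 lay near 0. Mrpl12 forms the stalk that binds translation factors and has been found to bind the mitochondrial RNA polymerase. It had signals of 6202 and 6339 with LIF and 5759 and 6508 without LIF, a log2 change of -0.035 (SE 0.16) that read 0.04 with quantile normalization and 0.05 without array 1 without LIF. Mrpl51, ranked 4 by signal, had 6981 and 8009.5 with LIF and 7169.7 and 6891 without, a change of -0.09 that was 0.003 on its plain probe set and 0.01 without array 2 with LIF. Mrpl3, which reaches towards the peptidyl transferase centre, had 2186 and 2421 with LIF and 2217 and 2617 without, a change of 0.07 (SE 0.18). It turned to -0.07 with a common median of tested genes, -0.23 with one of all probe sets, -0.01 without array 1 with LIF and -0.05 without array 2 without LIF. In all 3 genes the groups overlapped.

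The 3 genes whose arrays without LIF both lay above both arrays with LIF were Mrpl16, Mrpl54 and Mrps34. Mrpl16, the counterpart of bacterial L16, had signals of 2564 and 2482 with LIF and 3136 and 3107 without LIF, a log2 change of 0.31 (SE 0.17) and an adjusted p of 0.56 (limma, Benjamini-Hochberg). Its arrays lay close together within each group. Mrpl54, mitochondria specific, had 949 and 1081 with LIF and 1239 and 1182 without, a change of 0.26 (SE 0.19), or -0.04 with a common median of all probe sets. Mrps34, also mitochondria specific, had 3358 and 2901 with LIF and 3506 and 3636 without, a change of 0.19 (SE 0.17), or -0.10 under that scaling. Under that scaling Mrpl16 was at 0.014.

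The other 5 of the 8 most positive genes had groups that overlapped. Mrpl33, the counterpart of bacterial L33, had the largest value, 0.34 (SE 0.32), from signals of 1989 and 2572 with LIF and 3980.3 and 2069 without LIF. Its change was 1.00 for the arrays of number 1 and -0.31 for those of number 2, and -0.13 without array 1 without LIF. That single array carried the positive sign. Mrpl13 had 3593 and 3487 with LIF and 4841 and 3522 without, a change of 0.22 that was -0.01 without array 1 without LIF and -0.07 with a common median of all probe sets. The same array was the high one for all 3 of its other probe sets above the filter. Mrpl27, whose bacterial counterpart lies at the peptidyl transferase centre, had 3806 and 5309 with LIF and 4438 and 5877 without, a change of 0.18 (SE 0.23). It read -0.06 without array 1 with LIF, -0.02 without array 2 without LIF and -0.11 with a common median of all probe sets. Mrps28 and Mrpl41 had changes of 0.09 and 0.08, and both turned negative with either common median (-0.05 and -0.06 over tested genes, -0.20 and -0.21 over all probe sets) and without array 1 with LIF (-0.02 and -0.03).

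**Figure D4:**
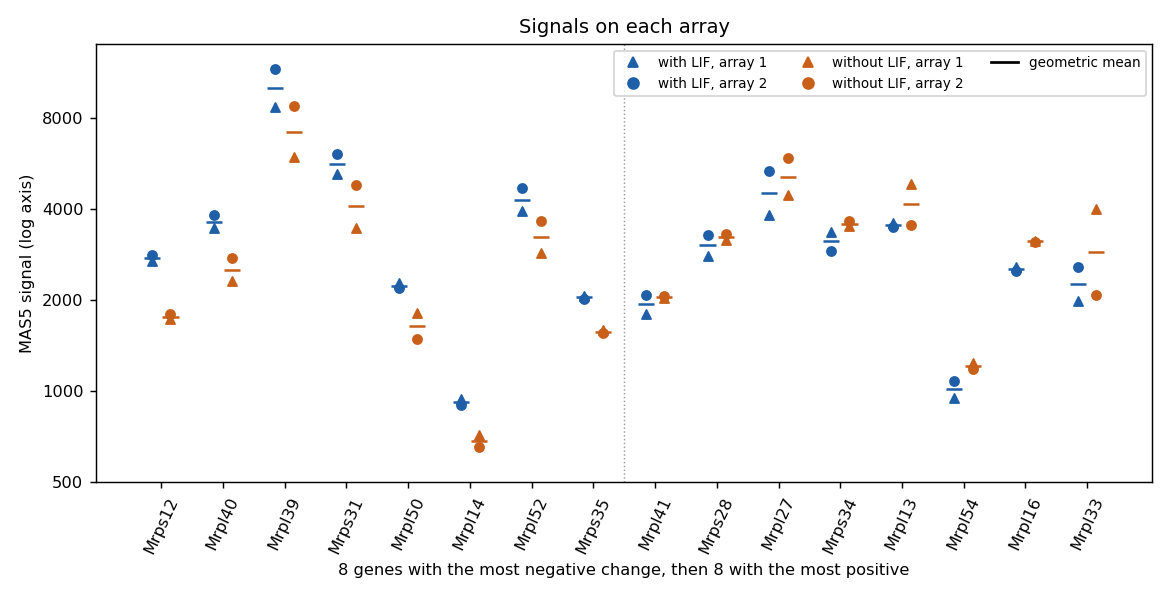
MAS5 signals (log axis) on the arrays numbered 1 (triangles) and 2 (circles) with LIF (blue) and without LIF (orange) for the 8 genes with the most negative and the 8 with the most positive change; bars are geometric means. For 7 of the first 8 (all but Mrpl39) both arrays without LIF lie below both with LIF; Mrpl33 shows 1 high array without LIF. A common median of all probe sets moves every change by -0.29, which leaves Mrpl16 at 0.014 and Mrpl33 at 0.050 and puts the other 6 of the second 8 below 0.

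Further probe sets for the same genes differed by brightness. Among the 76 genes, 42 had more than 1 probe set, and 73 of these further probe sets, for 39 genes, passed the filter. Of the 28 that were at least as bright as the dimmest probe set used, 23 had a change below 0, with a median of -0.17. Of the 45 dimmer ones 21 did, with a median of 0.04. All tested genes, most of them dimmer than the 76, had a median of 0.09.

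The genes that work with the mitoribosome were described from lists by function. Of the lists of subunits, factors and regulators, 1 gene passed the test, the regulator Esrrb, where 0.145% of all tested genes did. At an unadjusted p of 0.05 (limma) Gadd45gip1, Mrm2 and Gabpa were also lower, where 3.73% of all tested genes were. The lists held 4, 13, 16, 27, 19 and 10 tested genes, in the order described here. Subunits under other symbols had 4 genes measured, with a median change of -0.16, and Aurkaip1 had no probe set with its symbol alone. Gadd45gip1, a large-subunit protein, had signals of 2215 and 2078 with LIF and 1674 and 1516 without LIF, a change of -0.43 with an adjusted p of 0.45 (limma, Benjamini-Hochberg). Chchd1, of the small subunit, went the other way with 4659 and 5329 against 5820.2 and 5847, a change of 0.23, or -0.07 with a common median of all probe sets. Dap3, a GTP-binding protein of the small subunit, had a change of -0.20.

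Translation factors of mitochondria had 13 genes tested, 12 of them below 0, with a median of -0.11. Tsfm, an elongation factor, had a change of -0.36 (SE 0.21) and Slirp, which stabilises mitochondrial messengers, -0.34 (SE 0.16). The partner of Slirp, Lrpprc, had 0.16, or -0.13 with a common median of all probe sets. Of 16 mitochondrial tRNA synthetases 7 were below 0, and the median was 0.06. Wars2 for tryptophan had 132 and 165 with LIF and 315 and 211 without LIF, a change of 0.80 (SE 0.34). Pars2 for proline had -0.39, and Cars2 for cysteine 0.23, or -0.06 with a common median of all probe sets. None of these genes passed the test.

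Assembly factors of the mitoribosome had 20 of 27 genes below 0 and a median of -0.11. Mrm2, a methyltransferase of the large ribosomal RNA, had signals of 497 and 637 with LIF and 349 and 392 without LIF, a change of -0.61 (SE 0.25). Rbfa, a maturation factor of the small subunit, had -0.52 (SE 0.24), and Gtpbp10, a GTPase that acts in assembly of the large subunit, -0.46 (SE 0.20). For 10 of the 27 both arrays without LIF were below both with LIF, and for 2 above, where 15.2% and 27.3% of all tested genes were. The smallest adjusted p of the list was 0.44, for Mrm2 (limma, Benjamini-Hochberg).

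Mitochondrial transcription, DNA and RNA processing had 15 of 19 genes below 0 and a median of -0.22. Polrmt, the mitochondrial RNA polymerase, had 1566 and 1714 with LIF and 1031 and 1354 without LIF, a change of -0.47 (SE 0.21). Mterf2, a factor that binds mitochondrial DNA, had -0.49 (SE 0.23). Polg, the catalytic subunit of the mitochondrial DNA polymerase, had 1364 and 1505 against 1726 and 2188, a change of 0.44 (SE 0.20). None of the 3 passed the test, and Polg stood on the opposite side from most of its list.

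Among 10 tested regulators of nuclear genes for mitochondria, 7 were below 0, and Ppargc1a lay below the filter. Esrrb, an orphan nuclear receptor that is also a core ES cell factor, was the only one that passed: 2763 and 2646 with LIF, 455 and 690.0 without LIF, a change of -2.27 (SE 0.24) and an adjusted p of 0.031 (limma, Benjamini-Hochberg). It missed the threshold with quantile normalization (0.079), without the mean-variance trend (0.29), with the mean of its probe sets (0.055) and without array 2 with LIF (0.15), all by limma with the same adjustment. Gabpa had 3637 and 4686 with LIF and 2789 and 3015 without LIF, a change of -0.51 (SE 0.19), with an adjusted p of 0.40 (limma, Benjamini-Hochberg). Pprc1, a coactivator of this programme, had -0.31 (SE 0.17). The groups overlapped in neither Esrrb nor Gabpa.

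Cytosolic ribosomes and the respiratory chain gave smaller medians. The 46 cytosolic ribosomal protein genes had a median change of -0.06, with 34 below 0, but only 3 were lower without overlap and 1 higher. The median signal of their probe sets was 28720.4. The 80 subunits of complexes I to IV and ATP synthase, all encoded in the nucleus, had a median of -0.07, with 53 below 0, 14 lower without overlap and 6 higher. As a share, 42.1% of the mitochondrial ribosomal genes, 6.52% of the cytosolic ones and 17.5% of the respiratory ones were lower without overlap, against 15.2% of all tested genes and 23.3% of those as bright as the dimmest of the 76. The same share was 47.4% for mitochondrial transcription, DNA and RNA processing, 46.2% for translation factors and 37.0% for assembly factors. It was 50% for the 4 subunits under other symbols, 30% for regulators and 0% for tRNA synthetases. These differences between lists were not tested.

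Other measures moved with the groups or with the array numbers. Signals of 8 ES cell markers summed to 105813 and 128948 with LIF against 57119 and 81216 without, so they also read lower without LIF, and Klf4 and Esrrb passed the test as lower. Pou5f1 was 9035 and 8246 with LIF and 7212 and 10632 without. Summed signals of 8 primitive endoderm markers followed the number more than the group, at 954 and 3219 with LIF and 1321 and 6953 without, and were low on both arrays numbered 1. Trophoblast markers summed to 3093 and 4230.0 with LIF and 1294 and 1375 without. Most of each sum was Tfap2c, which passed as lower (2667 and 3785 with LIF, 707 and 713 without). Of the 5 tested, 2 were lower and 2 higher without overlap, where 15.2% and 27.3% of all tested genes were. The higher ones were Eomes (161 and 167 with LIF, 264 and 360 without) and Plac1 (58.7 and 89.1 with LIF, 103 and 122 without). Cdx2 (4.3 and 4.8 with LIF, 32.4 and 44 without), Elf5 (34.5 and 16.1 with LIF, 5.7 and 4.9 without) and Gata3 (36.3 and 1.7 with LIF, 35.7 and 9.4 without) lay below the filter. Fibroblast markers summed to 669 and 345 with LIF and 959 and 536 without, higher without LIF within both numbers and lower on the arrays numbered 2. Among them Dcn, a proteoglycan of connective tissue, was 67.3 and 53.1 with LIF and 172 and 151 without. Twist2 (4.9 and 6.5 with LIF, 23.8 and 31.6 without) and Lum (18.5 and 3 with LIF, 43.9 and 23.3 without) lay below the filter. Both were also higher on each array without LIF. Of the 6 tested, only Dcn was higher without overlap, where 27.3% of all tested genes were. The groups of the other 5 overlapped, as for Col1a1 (107 and 35.4 with LIF, 118 and 29.3 without). The 18S ribosomal RNA control was 261 (with LIF) and 307 (without) for array number 1, and 1933 and 1054 for array number 2. The median signal over all probe sets was 69.9 on array 1 and 59.6 on array 2 with LIF, and 95.5 and 65.5 on those without. The part of these measures in the lower mitochondrial ribosomal signals was not tested.

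Genes with and without the ETS letters were found on both sides of 0. The ETS letters stood in a promoter window of 25 of the 67 matched genes (37.3%). The same held for 9.93% of all genes with a window, 17.7% of the tested ones and 26.0% of those as bright. Of 29 matches, 17 lay within 100 bases before the start and 9 after it. Genes with the letters had a median change of -0.11, with 20 of 25 below 0, and the others -0.19, with 35 of 42. Both the most negative gene, Mrps12, and the most positive, Mrpl33, were among the 25. Mrpl52, Mrps18a and Mrpl27, whose stretches are printed, had changes of -0.41, -0.002 and 0.18. The letters of YY1, AAGATGGCG, stood in 8 promoters (11.9%, against 1.64% of all, 3.02% of tested and 5.09% of bright genes), and all 8 genes were below 0, Mrps18a by the least. Their median change was -0.18, as was that of the 59 genes without the letters, of which 47 were below 0. The letters of NRF1, those in capitals in the Mrpl39 stretch, stood in 3 (4.48%, against 1.07%, 2.06% and 2.93%), those of Mrpl39, Mrpl32 and Mrpl9. The E-box CACGTG stood in 5 (7.46%, against 8.09%, 11.2% and 14.2%), and the STAT letters TTCCNGGAA in 1 (1.49%, against 1.35%, 1.45% and 1.14%), that of Mrpl50. All motifs were searched on both strands, and a match describes letters, not binding. The GC content was averaged over the windows of each gene. Its median was 58.0% for the 67 genes, above the 52.75% of all genes with a window and below the 61.3% of those as bright.

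Many of these genes start beside another gene on the opposite strand. By the gene starts of RefSeq, 25 of the 67 genes with a promoter window had such a partner with its start within 1000 bases. Of such pairs, 21 were measured on both sides, 1 of them formed by Mrpl46 and Mrps11 (-0.24 and -0.22). Of the 20 other partners 10 were below 0 and 10 above, with a median change of -0.05, while 18 of their 20 mitochondrial ribosomal neighbours were below 0, with a median of -0.27. Mrps12 starts beside Sars2, a mitochondrial seryl-tRNA synthetase. Sars2 had signals of 447 and 396 with LIF and 451 and 449 without LIF, a change of 0.10 against -0.64 for Mrps12. Mrpl40 starts beside Hira, a histone chaperone, which had 0.26 against -0.53. Mrpl14 starts beside Tmem63b, at 0.42 against -0.42, and Mrpl41 beside Pnpla7, at 0.82 against 0.08. The pair had opposite signs in 10 cases. These counts depend on the scaling: with a common median of tested genes 16 of 20 partners and 19 of 20 neighbours were below 0, with 5 pairs of opposite sign, and with one of all probe sets 18 and 20 were, with 2 such pairs. A shared shift leaves the order within a pair as it is, and the mitochondrial ribosomal gene had the lower change in 14 of the 20. These 4 partners were all above 0 and dimmer than their neighbours, and none of them passed the test. The 10 partners below 0 included Zfp661, at -0.60 against -0.32 for Mrps5, and Ptcd2, at -0.24 against -0.07 for Mrps27. Partner signals ran from 87 (Ighmbp2) to 20564 (Fau), so the medians of partners and neighbours also compare genes of unlike brightness. The differences within pairs were not tested.

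**Figure D5:**
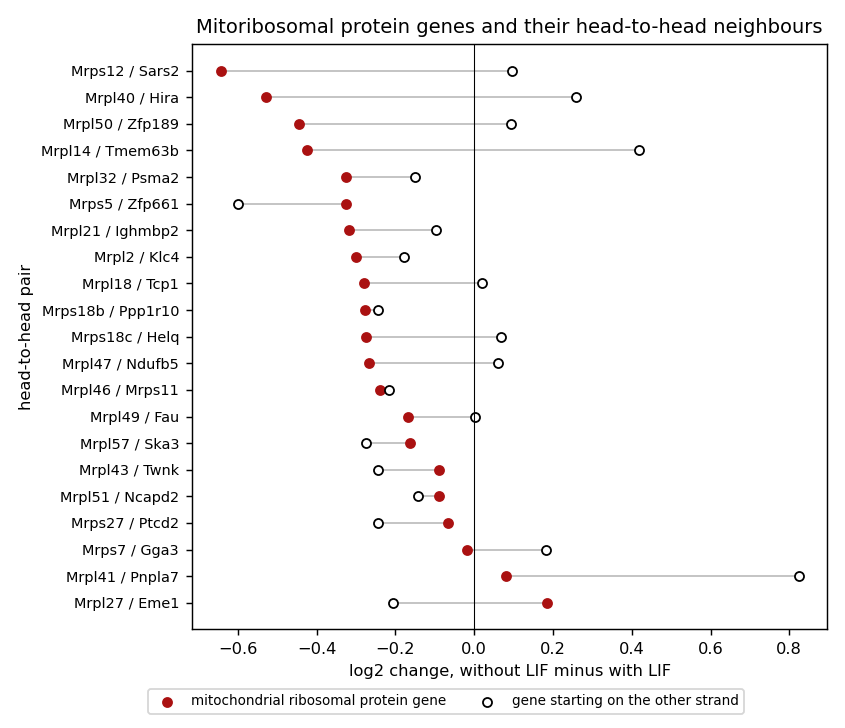
Log2 change (without LIF minus with LIF, x axis) of 21 pairs of genes that start within 1000 bases on opposite strands (y axis), with the mitochondrial ribosomal gene filled and its neighbour open. Most filled points lie below 0, while the open points spread from -0.60 (Zfp661) to 0.82 (Pnpla7); with a common median of all probe sets every point moves by -0.29, and 18 of 20 partners and all 20 of their mitochondrial ribosomal neighbours are below 0.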

How the data were processed

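Expression was measured on 4 Affymetrix arrays, 2 per group. The deposited values are linear intensities from MAS5, as named in the submitters' processing notes, which state no version. MAS5 works on 1 array at a time and scales it to a common mean level, which leaves dim signals unaligned across arrays. Of 45101 probe sets, 34945 had 1 gene symbol and 64 were controls. One value at or below 0 was raised to 0.1. Log2 signals above the 30th percentile (a signal of 22.9) went into limma 3.58.1 under R 4.3.3 (lmFit, eBayes with trend) with group alone as term, leaving 2 residual degrees of freedom, Benjamini-Hochberg over 14445 genes at 0.05, two-sided. The fit was tested on simulated data. SE is the moderated standard error. For genes of other lists and markers, the same rule on probe sets held. Promoters and gene starts came from RefSeq tables of GRCm38.p6. Figures used matplotlib 3.10.9.

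The genes, lists, alternatives and naming rule were chosen with earlier results of these data known. Named were genes that passed, the 8 most negative and 8 most positive, the 4 brightest, 11 genes of known role, and in other lists those that passed and up to 3 with the smallest p. Head-to-head partners were chosen after their values were seen. Alternatives were other filters, a pseudocount, quantile and common-median scaling, other eBayes settings, other probe set rules, a replicate block, a threshold of 0.1 and leaving out arrays.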

Additional observations from a re-analysis of the deposited data

How the results depend on the processing

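Of the 76 genes, 0 passed limma with Benjamini-Hochberg adjustment in each fit without the array number, including those that left out an array (0 to 0), where a lone array was assumed to vary like the others. The labels do not say that the numbers pair the arrays, and only 2 numbers exist. Deviations of same-numbered arrays from their group means correlated at r = 0.29 across all tested genes and 0.45 across the 76, and genes are not independent. Adding the array number as a block called 3 genes lower, Mrps12 (adjusted p 0.017), Mrpl40 (0.034) and Mrpl39 (0.030), where 975 of all tested genes were called (limma, Benjamini-Hochberg). Gabpa was then called too (0.043). The block with quantile normalization, added after seeing the data, called 1, Mrps12, a count given here without its share over all tested genes. The median change was -0.14 with quantile normalization, -0.09 with the mean of probe sets, -0.31 with a common median of tested genes, -0.46 with one of all probe sets (added after seeing the data), and -0.26 to -0.07 on leaving out an array. A common median moved the median of all tested genes from 0.09 to -0.05 or -0.20, while the median of the 76 relative to it was -0.26 in each case, and -0.16 under quantile normalization. Relative to genes as bright (added after seeing the data) it was -0.13. Genes without overlap numbered 24 to 46 over the settings. Those that were higher numbered 3, or 7 with quantile normalization, 5 with either other probe set rule and 0 with a common median of all probe sets. In the main fit 42.5% of all tested genes had no overlap, and 27.3% were higher. These shares were not computed for the other settings, so the counts there have no background beside them. Over 464 values of the 29 named genes, 434 kept their sign and side of the threshold, 3 were newly called and 27 changed sign, in 12 genes. Leaving out an array gave ranges across 0 for Mrpl33 (-0.13 to 0.82), Mrpl13 (-0.0072 to 0.45), Mrpl27 (-0.056 to 0.42), Mrps28 (-0.021 to 0.21), Mrpl41 (-0.027 to 0.19), Mrpl3 (-0.053 to 0.19), Mrpl51 (-0.19 to 0.0098), Mrpl12 (-0.12 to 0.054), Mrps27 (-0.34 to 0.21) and Mrps18a (-0.21 to 0.20). Quantile normalization gave Mrpl12 0.045 and Mrps18a 0.0092, and plain probe sets gave Mrpl51 0.0031. A common median of tested genes gave Mrps28 -0.046, Mrpl41 -0.059 and Mrpl3 -0.073. One of all probe sets gave Mrpl54 -0.037, Mrpl13 -0.071, Mrps34 -0.099, Mrpl27 -0.11, Mrps28 -0.20, Mrpl41 -0.21, Mrpl3 -0.23, Chchd1 -0.066, Lrpprc -0.13 and Cars2 -0.062. The changes of sign under a common median come from the shift that all genes share. The cause of the other changes of sign was not tested. With 2 arrays a group, changes near the median SE of 0.19 could not be called.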
